A study of Mus musculus with 8 samples.

Results

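A set of 10 genes that mark the PERK branch of the unfolded protein response was examined in the dentate gyrus of mice lacking Derlin-1 or Derlin-2 in the central nervous system. They are Atf4, Ddit3, Trib3, Chac1, Atf3, Atf5, Ppp1r15a, Sesn2, Ddit4 and Nupr1, and every probe annotated with one of these symbols was taken. The array carried 26894 gene symbols, of which 19922 had a probe above the filter on dim signals. All 10 genes were among them, with 14 probes in total, since Atf4, Ddit3, Atf5 and Nupr1 had a pair of probes each. Each of the 14 probes was well above background on all 8 arrays.

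RNA of dissected dentate gyrus (male C57BL/6 mice, 8 to 9 weeks old) was hybridised to 8 Agilent arrays of the 1-colour kind, in which each sample is read alone as the brightness of spots. There were 4 groups of 2 arrays each. Derlin-1 control mice were Derl1 flox/flox and Derlin-1 KO mice carried a nestin-Cre transgene in addition. Derlin-2 control mice were Derl2 flox/flox and Derlin-2 KO mice likewise carried nestin-Cre. All mice, controls included, therefore bore floxed alleles, and no group carried Cre without them. The nestin promoter drives Cre in the neural lineage, so that microglia and endothelium in the tissue lie outside the deletion by design. The genotype field of the KO samples repeats the floxed genotype, and the groups were taken from the sample titles. Whether an array held RNA of a single mouse was not stated, so p-values measure only the spread between these samples, which may be technical.

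The protein kinase PERK sits in the membrane of the endoplasmic reticulum (ER) and is activated when misfolded proteins build up there. It phosphorylates the translation factor eIF2α, which lowers protein synthesis in general and favours translation of the mRNA of the transcription factor ATF4. ATF4 then switches on genes of amino acid supply and stress defence, among them Ddit3, which encodes the transcription factor CHOP. Because ATF4 is governed largely through translation of its mRNA, the transcript level of Atf4 is not a direct readout of the protein, whereas its targets are read at the RNA level. Other eIF2α kinases, which sense amino acid shortage, viral RNA or haem shortage, feed into the same program, known as the integrated stress response. Derlin-1 and Derlin-2 are ER membrane proteins that help to dispose of misfolded proteins, and the study asked whether their loss induces ER stress in the dentate gyrus.

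ATF4 binds DNA as a heterodimer with C/EBP proteins at the C/EBP-ATF response element, whose core was searched as TGATGNAA on both strands of RefSeq promoter windows (GRCm38.p6, 250 bases before to 50 after each gene's start). All 10 genes had a window, and Atf5 had 2, which gave 11 windows. The core was present in 4 of the 10 genes, namely Trib3, Chac1, Atf3 and Nupr1, compared with 3.97% of all 32851 windows. The stricter form TGATGCAA, a subset of these matches, was present in Chac1, Atf3 and Nupr1 and in 0.895% of all windows. In the sequences below, which cover the 250 bases before the start on the gene's own strand, capitals mark the core (read here on its reverse strand) and, near the end of the Atf3 sequence, a match to the cAMP response element (CRE) form TGACGTNA. They are shown because these are the genes whose promoters hold the sequence that ATF4 complexes recognise.
Chac1 (chr2:119350992-119351241, plus strand): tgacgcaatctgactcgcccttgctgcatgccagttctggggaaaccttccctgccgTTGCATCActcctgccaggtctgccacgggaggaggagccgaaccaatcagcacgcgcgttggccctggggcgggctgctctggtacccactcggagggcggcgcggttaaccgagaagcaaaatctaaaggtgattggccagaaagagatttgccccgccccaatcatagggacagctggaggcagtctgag
Atf3 (chr1:191183334-191183583, minus strand): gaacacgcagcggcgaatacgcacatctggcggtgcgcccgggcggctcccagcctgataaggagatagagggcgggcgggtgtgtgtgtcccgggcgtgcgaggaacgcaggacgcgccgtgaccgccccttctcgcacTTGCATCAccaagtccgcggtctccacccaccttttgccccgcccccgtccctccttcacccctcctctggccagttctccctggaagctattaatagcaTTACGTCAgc
Nupr1 (chr7:126625471-126625720, minus strand): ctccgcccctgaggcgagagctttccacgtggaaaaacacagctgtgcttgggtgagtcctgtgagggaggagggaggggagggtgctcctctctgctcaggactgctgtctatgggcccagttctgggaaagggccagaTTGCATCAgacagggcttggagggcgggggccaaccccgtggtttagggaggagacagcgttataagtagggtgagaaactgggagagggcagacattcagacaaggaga

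Counting the first base of the gene as 1 and the base before it as -1, the core lay at bases -193 to -186 in Chac1 and at bases -110 to -103 in both Atf3 and Nupr1. In Trib3 it lay inside the gene, at bases 15 to 22, and 30 bases around it are shown. The CRE form was present in Atf3 at bases -10 to -3 and in Ppp1r15a at bases -12 to -5, against 2.93% of all windows. The sequence around the Ppp1r15a match is given beside that of Trib3, with the matches in capitals.
Trib3 (chr2:152344028-152344057, minus strand): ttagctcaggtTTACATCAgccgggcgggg
Ppp1r15a (chr7:45526262-45526291, minus strand): cgcctctccggTGACGTCAgcacagcgccg
The ER stress response element bound by ATF6, searched as CCAAT and CCACG separated by 9 bases, was in none of the 11 windows and in 0.119% of all windows. Atf4, Ddit3, Atf5, Sesn2 and Ddit4 held none of these motifs. A match is a description of letters in this window only, and elements of the same genes may lie elsewhere.

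**Figure D1:**
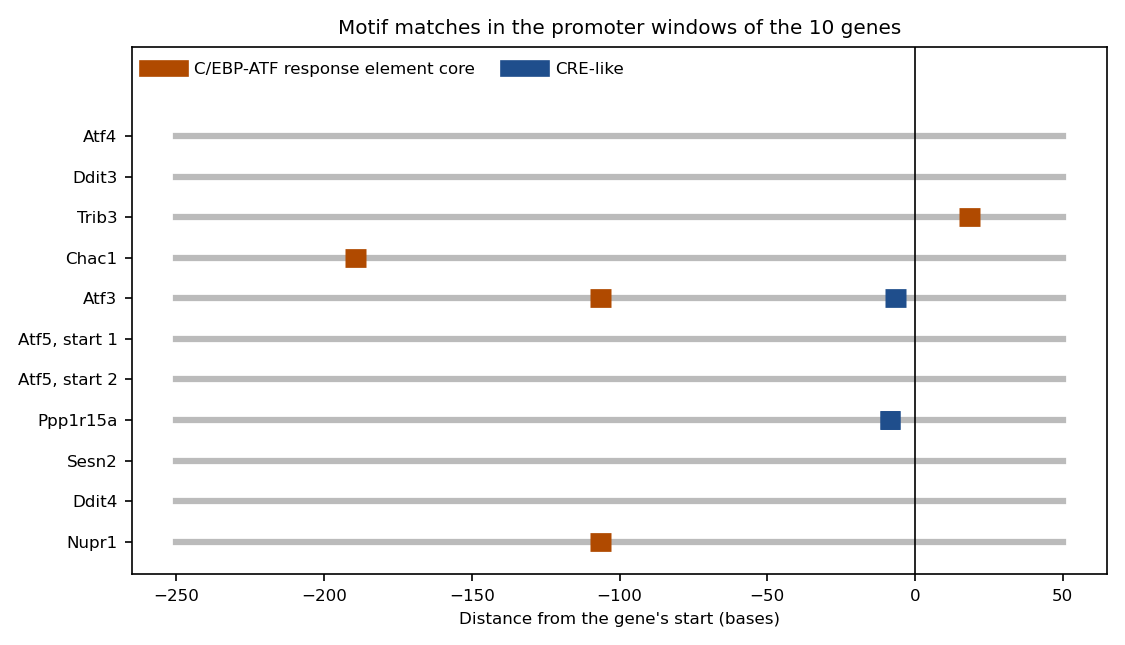
Matches to the C/EBP-ATF response element core (orange) and the CRE form (blue) in the 11 promoter windows of the 10 genes, by distance from the start of the gene in bases (grey bar: the window searched). The core lies at the same distance, -110 to -103, in Atf3 and Nupr1, farther upstream in Chac1 and just inside the gene in Trib3.

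Across an array, 67.6% to 70.8% of the 56605 probes were well above background, and arrays of the same group correlated across probes with a Pearson's r of 0.987 to 0.995. KO and control arrays from the same line were as close (0.988 to 0.993), and arrays from different lines less so (0.965 to 0.985). Because the lines were on separate slides, slide and line cannot be told apart. Controls lay at the first and KO samples at the last positions of each slide, so that position and genotype cannot be told apart either. Of the targeted genes, Derl2 was lower in Derlin-2 KO by a log2 difference of -0.65 and -1.05 at its probes (adjusted p = 0.257 and 0.217 in limma), whereas the probes of Derl1 differed by -0.20 and 0.46 in Derlin-1 KO (adjusted p = 0.9999 for both in limma). The Derl1 signal thus does not settle which arrays lack the gene, and directions in the Derlin-1 line rest on the titles. On the arrays titled Derlin-1 KO, all 22 listed targets of ATF6 and XBP1 had a higher mean than on those titled control, by up to 2.12 for Derl3. Of all genes tested, 44% had a higher mean there. Because that list was chosen with earlier results of these data known, its direction does not settle the titles either. The 8 listed markers of granule neurons, the principal cells of the dentate gyrus, were well above background in every group, and so were 7 markers of CA pyramidal neurons, which lie outside it.

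In Derlin-1 KO, 9 of the 10 genes had a higher signal than in Derlin-1 control, with a median log2 difference of 0.26, beside -0.02 over the 19909 genes tested, of which 44% were higher. In Derlin-2 KO 7 of the 10 were higher, with a median of 0.07, beside 0.01 over 19814 genes, of which 52.3% were higher. Both KO arrays exceeded both control arrays for 7 of the 10 genes in the Derlin-1 line (Trib3, Chac1, Atf3, Atf5, Ppp1r15a, Sesn2 and Nupr1), against 17.9% of all probes. The same held for 4 of the 10 (Atf3, Atf5, Ddit4 and Nupr1) in the Derlin-2 line, against 17% of all probes. Both KO arrays fell below both controls for none of the 10 genes in either line, against 17.8% and 14.2% of all probes in the Derlin-1 and Derlin-2 line. Atf3, Atf5 and Nupr1 had KO arrays above control arrays in both lines, against 2.49% of all probes. These counts take the brightest probe of each gene and depend on that choice for Ddit3. At the Ddit3 probe annotated to its RefSeq mRNA, both KO arrays exceeded both controls in each line. With that probe 8 of the 10 genes were higher in Derlin-2 KO.

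No single gene of the 10 passed the threshold of limma with Benjamini-Hochberg adjustment over all probes, in either line. In the Derlin-1 line 0% of all 39981 probes passed it (1874 had an unadjusted p under 0.05), and in the Derlin-2 line 0.0452% of 39812. Of the 10 brightest probes, those of Chac1 and Atf3 had an unadjusted p under 0.05 in the Derlin-1 line, where 4.69% of all probes did, and that of Nupr1 in the Derlin-2 line, where 5.51% did. Of the second probes, Atf5 had such a p in both lines and Nupr1 in the Derlin-1 line. With 2 arrays a group the smallest two-sided p of an exact test is 0.333, and each p here rests on the spread that limma pooled over the 4 groups.

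**Figure D2:**
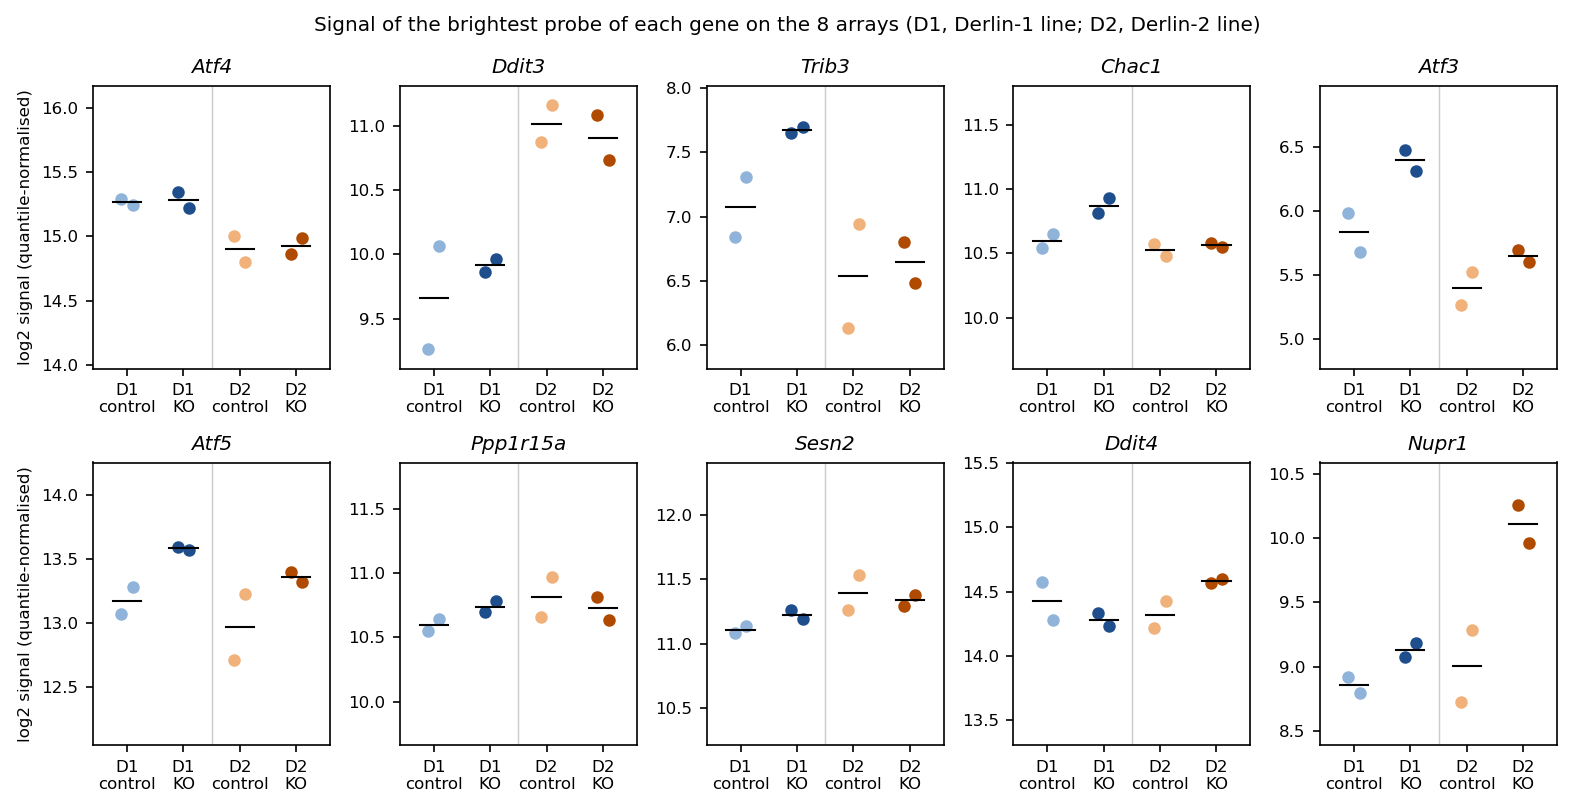
Quantile-normalised log2 signal of the brightest probe of each gene on the 8 arrays; points are arrays, black bars are group means (n = 2), and every panel spans the same range on the y axis. Both Derlin-1 KO points lie above both Derlin-1 control points in 7 panels, and the Nupr1 panel holds the widest separation of KO from control, in the Derlin-2 line.

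Atf4, the transcription factor at the head of the program, had nearly the same signal in KO and control. Its log2 signal was 15.29 and 15.24 in Derlin-1 control and 15.34 and 15.22 in Derlin-1 KO. The Derlin-2 arrays read 15.00 and 14.80 in control and 14.86 and 14.99 in KO. KO and control arrays overlapped in both lines. The difference was 0.02 (95% interval -0.27 to 0.30) in Derlin-1 KO and 0.03 (-0.26 to 0.31) in Derlin-2 KO. A difference as large as that of Nupr1 in Derlin-2 KO therefore lay outside both intervals. The second Atf4 probe was dimmer and varied more within groups, from 10.08 to 11.08 over the 8 arrays, with differences of -0.10 (SE 0.27) and 0.05 (SE 0.27) in the Derlin-1 and Derlin-2 line.

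Ddit3, which encodes CHOP, gave a different picture at each of its probes. The probe annotated to its RefSeq mRNA read 9.32 and 9.13 in Derlin-1 control and 9.40 and 9.48 in Derlin-1 KO. On the arrays of the Derlin-2 line it read 9.25 and 9.33 in control and 9.45 and 9.56 in KO. All 4 KO arrays thus lay above all 4 control arrays, by a small margin. The log2 difference was 0.22 (SE 0.11) in each line, and the 95% intervals, -0.06 to 0.50 in both, held 0. As a mean of the lines it was 0.22 (SE 0.08, 95% interval 0.02 to 0.41). The limma p of that mean was 0.034 unadjusted and 0.9998 adjusted. The brighter probe, annotated to another Ddit3 transcript, read 9.26 and 10.07 in Derlin-1 control, 9.87 and 9.97 in Derlin-1 KO, 10.88 and 11.16 in Derlin-2 control and 11.08 and 10.74 in Derlin-2 KO. KO and control overlapped there in both lines, with differences of 0.25 (SE 0.28) and -0.11 (SE 0.28). The sign in the Derlin-2 line thus depended on the probe. The brighter probe also separated the lines, with every array of the Derlin-2 line above every array of the Derlin-1 line, which the RefSeq probe did not.

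Trib3 encodes a pseudokinase that is induced by ATF4 and CHOP and in turn restrains ATF4. It read 6.84 and 7.31 in Derlin-1 control and 7.65 and 7.70 in Derlin-1 KO. The difference was 0.60 (SE 0.30), with a 95% interval of -0.12 to 1.32. It was 0.37 without Derlin-1 control replicate 1 and 0.83 without replicate 2. On the Derlin-2 arrays it read 6.13 and 6.94 in control and 6.80 and 6.49 in KO, so the groups overlapped, and the difference was 0.11 (SE 0.30). The Derlin-2 control arrays lay farther from each other than the group means did. The difference in that line was -0.30 without Derlin-2 control replicate 1 and 0.51 without replicate 2.

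Chac1, an enzyme that degrades glutathione and a target of ATF4, was tightly measured. It read 10.54 and 10.66 in Derlin-1 control and 10.81 and 10.93 in Derlin-1 KO. The difference was 0.27 (95% interval 0.02 to 0.53, limma adjusted p = 0.9999). For the Derlin-2 line the values were 10.57 and 10.48 in control and 10.58 and 10.55 in KO. The groups overlapped and the difference was 0.04 (95% interval -0.21 to 0.29). The difference between the lines was 0.23 (95% interval -0.12 to 0.59), so that the effect in Derlin-1 KO was not shown to differ from that in Derlin-2 KO.

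Atf3 encodes a stress-induced bZIP transcription factor and was among the dim probes of the set. It read 5.99 and 5.68 in Derlin-1 control and 6.48 and 6.31 in Derlin-1 KO, with no overlap. The difference was 0.56 (95% interval 0.18 to 0.94), a fold of 1.47 (limma adjusted p = 0.9999). In Derlin-2 control it read 5.27 and 5.53 and in Derlin-2 KO 5.70 and 5.60, again without overlap. The difference there was 0.25 (-0.12 to 0.63). The mean of the lines was 0.41 (0.14 to 0.67, limma adjusted p = 0.976). Normexp background correction gave 0.35 in Derlin-1 KO and 0.19 in Derlin-2 KO. Without that correction, the Derlin-2 difference was 0.12 when Derlin-2 control replicate 1 was left out and 0.38 when replicate 2 was.

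Atf5, a bZIP factor related to ATF4 whose translation is favoured in the same way, was higher in KO by nearly the same amount in both lines. Its brightest probe read 13.07 and 13.28 in Derlin-1 control and 13.59 and 13.57 in Derlin-1 KO. Derlin-2 arrays read 12.71 and 13.23 in control and 13.40 and 13.33 in KO. KO exceeded control on every array of each line. The differences were 0.41 (95% interval -0.04 to 0.85) and 0.39 (-0.05 to 0.84). The second probe gave the same order of arrays between groups, with differences of 0.46 (0.08 to 0.83) in Derlin-1 KO and 0.43 (0.06 to 0.81) in Derlin-2 KO. As a mean of the lines the brightest probe differed by 0.40 (0.08 to 0.72) and the second by 0.44 (0.18 to 0.71, limma adjusted p = 0.9998 and 0.931). The probes read the same RNA and are not independent. The value in the Derlin-2 line depended on which control array was kept. At the brightest probe the difference was 0.13 without Derlin-2 control replicate 1 and 0.65 without replicate 2.

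Ppp1r15a encodes GADD34, the phosphatase subunit that removes the phosphate from eIF2α and so closes the loop. It read 10.55 and 10.64 in Derlin-1 control and 10.69 and 10.79 in Derlin-1 KO, and the difference was 0.14 (SE 0.14). The Derlin-2 line had 10.66 and 10.97 in control and 10.81 and 10.64 in KO, with a difference of -0.09 (SE 0.14). The Derlin-1 groups were separated by a margin smaller than the spread between controls in the Derlin-2 line, and the Derlin-2 groups overlapped.

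Sesn2 encodes Sestrin-2, a stress-induced inhibitor of mTORC1 signalling. Its log2 signal was 11.08 and 11.13 in Derlin-1 control and 11.26 and 11.19 in Derlin-1 KO, and the difference was 0.12 (SE 0.12). The Derlin-2 line had 11.26 and 11.54 in control and 11.30 and 11.38 in KO, with a difference of -0.06 (SE 0.12). Ppp1r15a and Sesn2 thus both had separate groups in the Derlin-1 line and overlapping groups in the Derlin-2 line.

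Ddit4 encodes REDD1, another inhibitor of mTORC1, which responds to glucocorticoids and hypoxia as well as to ATF4. At the brightest probes it was the single gene of the set that was lower in Derlin-1 KO and higher in Derlin-2 KO. The second Atf4 probe had the same signs, at -0.10 (SE 0.27) and 0.05 (SE 0.27). Ddit4 read 14.57 and 14.28 in Derlin-1 control and 14.33 and 14.23 in Derlin-1 KO. The groups overlapped there, and the difference was -0.15 (SE 0.14). In Derlin-2 control it read 14.21 and 14.42 and in Derlin-2 KO 14.57 and 14.60, where they did not, and the difference was 0.27 (95% interval -0.07 to 0.60). The difference between the lines was -0.41 (-0.89 to 0.07, limma adjusted p = 0.863). Its difference in the Derlin-1 line was 5e-04 without Derlin-1 control replicate 1 and -0.29 without replicate 2. That in the Derlin-2 line was 0.16 without Derlin-2 control replicate 1 and 0.37 without replicate 2.

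Nupr1, a small chromatin-associated protein induced by many stresses and a known ATF4 target, had the largest difference of all 14 probes. Its brightest probe read 8.72 and 9.29 in Derlin-2 control and 10.26 and 9.96 in Derlin-2 KO. The difference of 1.11 (SE 0.21, 95% interval 0.60 to 1.62) was a fold of 2.16 (limma adjusted p = 0.408). It ranged from 0.83 to 1.39 when each array of the line was left out in turn. In the Derlin-1 line the same probe read 8.92 and 8.79 in control and 9.07 and 9.18 in KO, a difference of 0.27 (-0.24 to 0.78). The difference between the lines was -0.84 (-1.55 to -0.12, limma adjusted p = 0.811). Across all probes 5.85% reached p under 0.05 in this contrast and 0.00754% passed the adjusted threshold.

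The second Nupr1 probe, annotated to another transcript and much dimmer, did not repeat that order of the lines. It read 4.92 and 4.94 in Derlin-1 control and 5.90 and 5.43 in Derlin-1 KO, a difference of 0.74 (95% interval 0.34 to 1.13). The Derlin-2 arrays gave 5.35 and 5.28 in control and 5.65 and 5.62 in KO, a difference of 0.32 (-0.07 to 0.72). Both probes were higher in KO on every array of each line, but the larger difference lay in the Derlin-2 line at the bright probe and in the Derlin-1 line at the dim one. As a mean of the lines the brightest probe differed by 0.69 (0.33 to 1.05) and the dim one by 0.53 (0.25 to 0.81, limma adjusted p = 0.812 for both). The mean of both probes differed by 0.50 in Derlin-1 KO and by 0.72 in Derlin-2 KO, so that the lines lay closer together than at the bright probe.

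**Figure D3:**
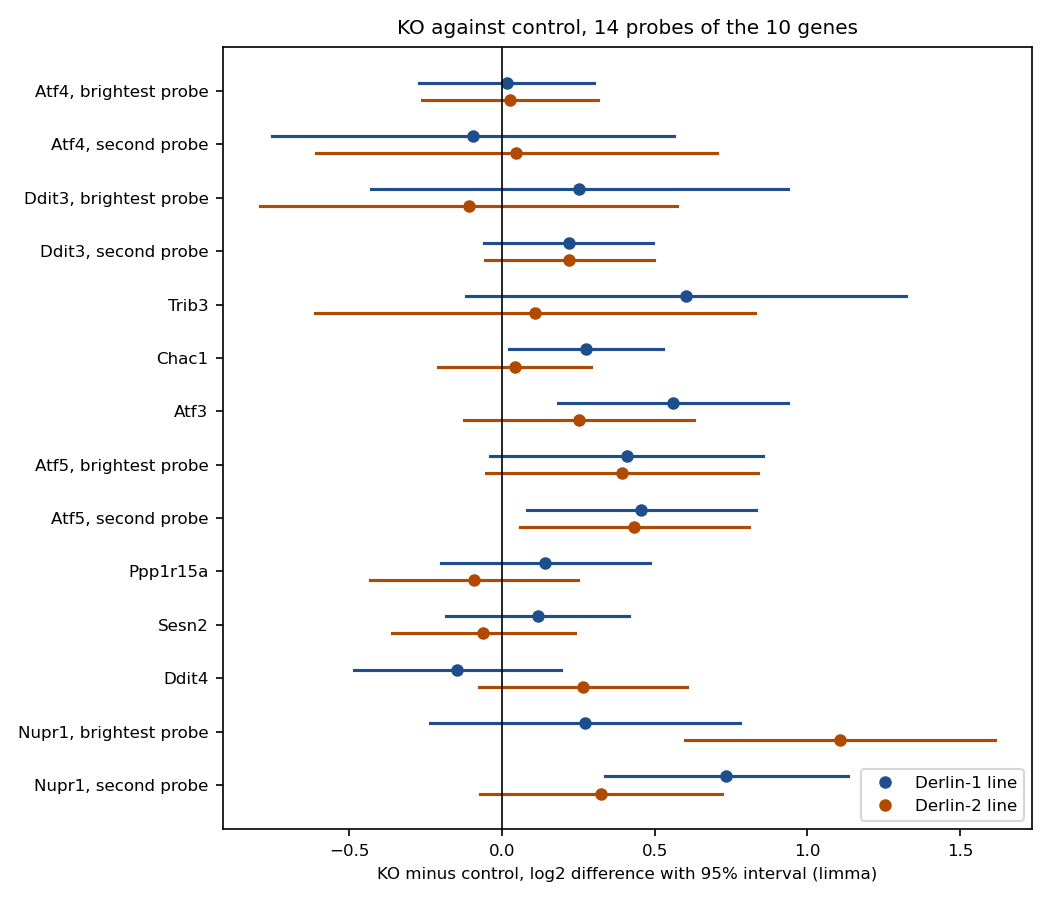
KO minus control log2 difference of the 14 probes with its 95% interval from limma (n = 2 arrays a group), in the Derlin-1 line (blue) and the Derlin-2 line (orange). Both probes of Atf5 sit near 0.4 in both lines, Atf4 sits at 0, and the probes of Nupr1 differ in which line is farther to the right.

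Taking the mean of the lines, which uses all 4 KO and all 4 control arrays, each of the 10 brightest probes had a difference above 0, from 0.02 for Atf4 to 0.69 for Nupr1, with a median of 0.11 beside -7e-04 over all genes. Of these probes, those of Atf3, Atf5 and Nupr1 had an unadjusted p under 0.05 in this contrast, in which 4.39% of all probes did and 0.0151% passed the adjusted threshold. Among the second probes, those of Ddit3, Atf5 and Nupr1 had such a p too. At its brightest probe Nupr1 was the one gene at p under 0.05 for the difference between the lines, while its second probe gave a difference of the opposite sign, 0.41 (95% interval -0.15 to 0.97). For the other genes the interval of that difference held 0, and it was wide, such as -0.53 to 1.51 for Trib3 and -0.22 to 0.84 for Atf3, so these data do not show whether the lines act alike.

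Within the set, the arrays differed in how many genes lay above the mean of their line. The count was 2 and 1 of 10 on the Derlin-1 control arrays and 9 and 8 on those of Derlin-1 KO. In the Derlin-2 line it was 2 and 6 in control and 8 and 7 in KO. Derlin-2 control replicate 1 and replicate 2 thus stood on different sides of their line, with median deviations of -0.17 and 0.03. Leaving out Derlin-2 control replicate 2 raised the median difference of that line to 0.22, and leaving out Derlin-1 control replicate 1 lowered that of the Derlin-1 line to 0.16. The number of genes higher in KO stayed between 8 and 9 in the Derlin-1 line and between 6 and 8 in the Derlin-2 line when each array was left out.

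Markers of other cell types moved with some of these groups. The summed signal of 7 microglia markers was 25100 to 26400 in Derlin-1 KO and 28900 to 29400 in Derlin-1 control, and all 7 had a lower mean in KO. That of 6 choroid plexus markers was 1600 to 1730 in Derlin-1 KO and 1410 to 1570 in its control, where 5 of the 6 had a higher mean in KO. All 5 blood markers had a lower mean in Derlin-1 KO, with a median log2 difference of -0.53. Their sums, 54700 to 60200 in KO and 53400 to 116000 in control, overlapped, but Hbb-b1 and Alas2, which differed by -0.74 and -0.66, did not. In the Derlin-2 line 7 astrocyte markers summed to 241000 to 252000 in KO and 262000 to 279000 in control, 7 CA pyramidal markers to 23900 to 25200 and 26100 to 26500, 6 endothelial markers to 9800 to 10400 and 8770 to 9690, and 5 blood markers to 80300 to 81500 and 87200 to 99800. The astrocyte list was split, with 4 of its 7 markers higher and 3 lower in Derlin-2 KO and a median log2 difference of 0.06. The lower ones were Slc1a3, Aldh1l1 and Aldoc, at -0.30, -0.27 and -0.14. The CA pyramidal list had 5 of 7 lower, the endothelial list 5 of 6 higher and the blood list all 5 lower, with medians of -0.09, 0.13 and -0.13. In the Derlin-1 line the endothelial sums were also apart, at 9310 to 9540 in KO and 9130 to 9290 in control, while 3 of the 6 markers were higher and 3 lower, with a median of -5e-04. The sums of the remaining lists overlapped between KO and control in each line. No marker of these lists was at background in any group, as all were well above it, and none passed the adjusted threshold. Their part in the differences of the 10 genes was not tested. In a bulk tissue, fewer cells of a type and less RNA per cell cannot be told apart.

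The kinases that phosphorylate eIF2α were examined next, as the genes upstream of ATF4. Eif2ak3, which encodes PERK itself, read 9.89 and 9.85 in Derlin-1 control and 10.07 and 9.96 in Derlin-1 KO, a difference of 0.14 (SE 0.10). Derlin-2 arrays read 9.85 and 10.01 in control and 10.11 and 10.09 in KO, a difference of 0.17 (SE 0.10). The KO arrays were the higher ones in both lines by a small margin. Eif2ak4, the amino acid sensor GCN2, differed by 0.14 and 0.06, and Eif2ak1, the haem-regulated kinase, by -0.24 and 0.18 in the Derlin-1 and Derlin-2 line. Eif2ak2, the kinase PKR that senses double-stranded RNA, read 7.78 and 8.49 in Derlin-2 control and 7.20 and 7.40 in Derlin-2 KO, a difference of -0.84 (SE 0.23, adjusted p = 0.655, limma). This was the largest difference among the 14 genes of kinases and translation machinery, and in the Derlin-1 line it was -0.13. Dnajc3, the ER-resident inhibitor of PERK known as p58IPK, was higher by 0.32 (SE 0.12) in Derlin-2 KO and by 0.13 in Derlin-1 KO. Eif2a, an initiation factor distinct from eIF2α, differed by -0.30 in Derlin-1 KO. Of the 14 genes, 4 were higher in Derlin-1 KO and 10 in Derlin-2 KO, with medians of -0.03 and 0.03, and none passed the adjusted threshold.

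Paralogues of the 10 genes had no common direction. Of 8, 4 were higher in Derlin-1 KO and 5 in Derlin-2 KO, with medians of 0.03 and 0.01. Ddit4l, the paralogue of Ddit4, read 9.25 and 9.08 in Derlin-1 control and 9.68 and 9.56 in Derlin-1 KO, a difference of 0.46 (SE 0.21), and 0.27 in the Derlin-2 line. Nupr1l, the paralogue of Nupr1, differed by -0.33 (SE 0.28) in Derlin-1 KO, where the groups overlapped. In Derlin-2 KO it differed by -0.35, with both KO arrays below both controls. Both signs were opposite to those of Nupr1. Trib1, Sesn3 and Trib2 differed by 0.17, 0.10 and 0.07 in the Derlin-1 line, where Ppp1r15b, Sesn1 and Chac2 differed by -0.08, -0.12 and -0.01.

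Among 12 bZIP proteins that pair with ATF4 or CHOP or act beside them, 4 were higher in Derlin-1 KO and 5 in Derlin-2 KO, with medians of -0.15 and -0.03. The C/EBP factors Cebpa and Cebpb had the lowest values in Derlin-1 KO, at -0.49 (SE 0.23) and -0.47 (SE 0.29). Both KO arrays lay below both controls, for Cebpb only at 11.624 against 11.625 on the closest arrays. Derlin-1 control replicate 1 read above replicate 2, at 8.88 against 8.24 for Cebpa and 12.25 against 11.62 for Cebpb. Of the other C/EBP factors listed, Cebpd differed by -0.29 with overlapping groups. Cebpg differed by 0.08, with both KO arrays above both controls. Xbp1, the transcription factor of the IRE1 branch, differed by 0.33 (SE 0.13) in Derlin-1 KO and by 0.28 (SE 0.13) in Derlin-2 KO, with both KO arrays above both controls in each line (limma adjusted p = 0.9999 and 0.943). Jdp2, a repressor of AP-1 and CRE sites, differed by -0.19 in Derlin-2 KO. None passed the adjusted threshold.

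The wider program downstream of ATF4 was measured by 28 genes of amino acid synthesis, transport and tRNA charging. Of these, 19 were higher in Derlin-1 KO and 20 in Derlin-2 KO, with medians of 0.09 and 0.06 and none past the adjusted threshold. Slc6a9, a glycine transporter, and Cars, a cysteinyl-tRNA synthetase, had the largest differences in Derlin-1 KO, at 0.35 (SE 0.22) and 0.34 (SE 0.10). In Derlin-2 KO, Slc7a11, the light chain of the cystine transporter, read 9.05 and 9.14 against 8.77 and 8.33 in control, a difference of 0.55 (SE 0.20, adjusted p = 0.862, limma). Pck2, the mitochondrial PEP carboxykinase, differed by 0.26 there.

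Another 18 targets of ATF4 or CHOP, from autophagy, cell death and secreted factors, were listed, of which 17 were tested, since Fgf21 did not pass the filter on dim signals. In Derlin-1 KO 13 of the 17 were higher and in Derlin-2 KO 9, with medians of 0.05 and 0.04. Eif4ebp1, the translation repressor 4E-BP1, read 8.50 and 8.56 in Derlin-1 control and 8.87 and 8.92 in Derlin-1 KO, a difference of 0.36 (SE 0.09, adjusted p = 0.9999, limma). Vegfa, the angiogenic factor, was higher there by 0.30 (SE 0.10). In Derlin-2 KO the largest differences were 0.44 (SE 0.35) for Stc2, a secreted glycoprotein, and -0.33 (SE 0.42) for Cdkn1a, the cell cycle inhibitor p21, and the groups overlapped for both.

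The part of the ER stress program driven by ATF6 and XBP1 was listed as 22 targets, for comparison on the same arrays. Dnajc3, Herpud1 and Xbp1 also belong to lists described above, so the lists are not fully separate. All 22 were higher in Derlin-1 KO and 18 in Derlin-2 KO, where 44% and 52.3% of all genes were. The medians were 0.31 and 0.15 beside 0.26 and 0.07 for the 10 PERK-branch genes. Both KO arrays exceeded both controls for 19 of the 22 in Derlin-1 KO and for 12 in Derlin-2 KO, against 17.9% and 17% of all probes. Hspa5, the ER chaperone BiP, read 13.97 and 13.83 in Derlin-1 control and 14.58 and 14.52 in Derlin-1 KO, and 13.79 and 14.02 in Derlin-2 control and 14.36 and 14.41 in Derlin-2 KO, where the difference was 0.48 (SE 0.12, adjusted p = 0.591, limma). Derl3, the ER-stress-inducible member of the Derlin family, had the largest differences of the list in both lines, at 2.12 (SE 0.28) and 1.21 (SE 0.28), and Sdf2l1, an ER-resident cofactor, followed in Derlin-1 KO at 0.69 (SE 0.16). None of the 22 passed the adjusted threshold. Whether the ATF6 and XBP1 targets moved more than the PERK-branch genes was not tested.

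**Figure D4:**
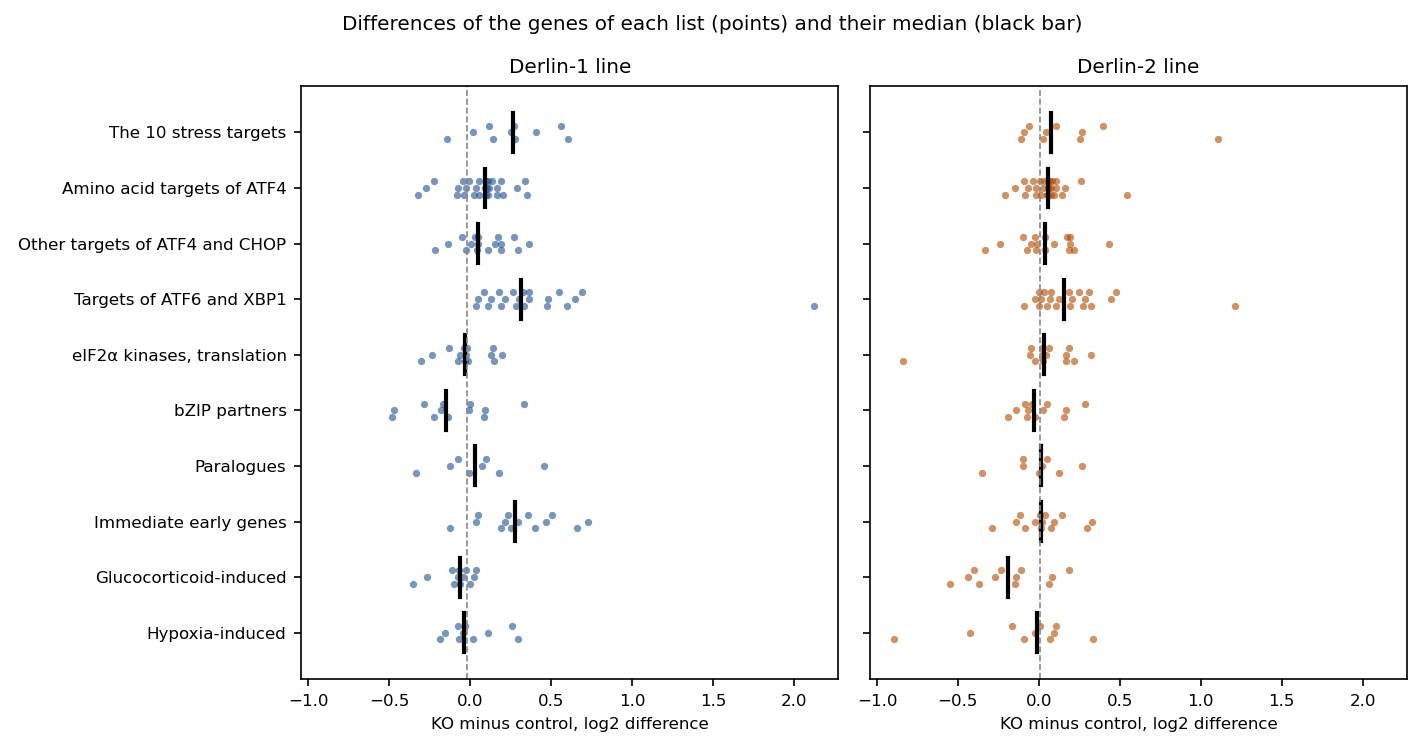
KO minus control log2 difference of every gene of 10 lists (points) with the median of the list (black bar) in each line; the dashed line is the median over all genes tested. The 10 stress targets, the ATF6 and XBP1 targets and the immediate early genes have medians of 0.26, 0.31 and 0.28 in the Derlin-1 line, and the ATF6 and XBP1 targets have the highest median, 0.15, in the Derlin-2 line.

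Several of the 10 genes also answer to signals other than ER stress, and lists of these were read on the same arrays. Of 14 immediate early genes, which respond to neuronal activity and handling and include relatives of Atf3, 13 were higher in Derlin-1 KO with a median of 0.28. Of all genes, 44% were higher there. Both KO arrays exceeded both controls for 10 of the 14, against 17.9% of all probes. Egr2 and Npas4 led, at 0.73 (SE 0.25) and 0.66 (SE 0.37). In Derlin-2 KO 9 of the 14 were higher, with a median of 0.01, and Dusp1 and Egr2 had the largest values, 0.33 and 0.30, with overlapping groups. The immediate early genes thus moved with the 10 genes in the Derlin-1 line, and their part in the result was not tested.

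Of 12 glucocorticoid-induced genes, 2 were higher in Derlin-1 KO and 3 in Derlin-2 KO, with medians of -0.07 and -0.19. Fkbp5, a chaperone of the glucocorticoid receptor, differed by -0.35 (SE 0.16) in Derlin-1 KO, and Mt2, a metallothionein, differed by -0.26 and -0.55 in the Derlin-1 and Derlin-2 line. For Mt2 the Derlin-1 arrays read 16.15 and 16.61 in control and 16.12 and 16.11 in KO. Sult1a1, a sulfotransferase, differed by -0.44 in the Derlin-2 line, where the groups overlapped. Derlin-2 control replicate 2 read above replicate 1 for each gene of this list. The values were 17.06 against 16.36 for Mt2 and 10.31 against 9.44 for Sult1a1. The part of that array in the median of the line was not tested. Ddit4, which glucocorticoids also induce, was lower in the Derlin-1 line and higher in the Derlin-2 line. Of 10 hypoxia-induced genes, 4 and 5 were higher, with medians of -0.04 and -0.01. Car9, a carbonic anhydrase, and P4ha1, a collagen prolyl hydroxylase, read lower in Derlin-2 KO, at -0.89 (SE 0.26) and -0.42 (SE 0.12). In Derlin-1 KO, Vegfa had the largest difference, 0.30 (SE 0.10), with both KO arrays above both controls. Vegfa is also counted among the other targets of ATF4 and CHOP. Egln3, an oxygen sensor, differed there by 0.26. No gene of these lists passed the adjusted threshold.

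The genes most alike to Atf4, Ddit3 and Ddit4 over the 8 arrays were sought among 18055 genes by Pearson's r after the mean of each line was subtracted. For Atf4 they were Cep89 (r = 0.980), Sugp1 (0.978) and Preb (0.972). For the brighter Ddit3 probe they were Gm33693 (0.994), Psg29 (0.986) and Gm35257 (0.985), and for Ddit4 they were Zfp189 (0.989), Rrs1 (0.986) and A230070E04Rik (0.986). None of the other 9 genes of the set was among the 3 closest to any of them. These are the highest values of a search over all those genes on 8 arrays that share 2 slides, and they are given as a description.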

How the data were processed

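Members and gene lists were chosen with earlier results of these data known. Per the file headers, spot intensity was background-subtracted and spatially detrended with Agilent Feature Extraction (10.7.1.1), after labelling of 150 ng total RNA. The authors' deposited tables hold log2 values, quantile-normalised in GeneSpring and shifted by the median of all samples, which served as an alternative only. Columns of those tables with fold changes and their direction were not used. Spots of genes and transcripts (59305) were kept and 3671 control spots and outlier spots left out. The intensity was floored at 1, log2-transformed and quantile-normalised over the 8 arrays, spots of a probe were averaged, and a probe entered the tests if some group had both its arrays well above background (40001 of 56605). No spot was saturated. Gene symbols are those of the array design, whose annotation uses an older mouse assembly, so gene positions from the files are not given.

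A single limma model (3.58.1, R 4.3.3) of 4 group means was fitted, with 4 residual and 2.08 prior degrees of freedom. Contrasts were KO minus control in each line, their mean and their difference, two-sided, with Benjamini-Hochberg adjustment over all probes tested and a threshold of 0.05. The script was tested on simulated data. The brightest probe over the 8 arrays stood for a gene. Probes were called brighter or dimmer by their signal, which was not read as a difference in amount of RNA. Named were all 10 members, and of each pathway list the 2 genes with the largest difference in each line among genes well above background; all measured kinases and paralogues could be named. The number of arrays limits the precision. Alternatives were scaling to the 75th percentile, normexp (offset 50), the deposited log2 values, filters, the 4 arrays of a line alone, a replicate block, leaving out the last eighth of the rows or each array, other probes of a gene, and a 1.5-fold rule. Normexp was run on the median spot and background intensity, since the scanner files hold no mean spot intensity.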

Additional observations from a re-analysis of the deposited data

How the results depend on the processing

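No alternative brought any of the 10 genes past the adjusted threshold. Counts of probes past it moved more. In Derlin-1 KO it was 0, between 0 and 1 when each array was left out (1 without Derlin-1 control replicate 2), and 1856 probes had at least a 1.5-fold difference without a test. In Derlin-2 KO it was 18, and became 2 with normexp, 29 without the filter, 2 with probes well above background on all arrays, 0 with the 4 arrays of the line, 4 without the last rows, 4 to 55 when each array was left out (55 without Derlin-2 control replicate 1 and 47 without replicate 2), and 2263 by the 1.5-fold rule. For the mean of the lines it was 6, and became 0 with normexp, with probes well above background on all arrays and without the last rows, 2 with the deposited log2 values, 0 to 25 when each array was left out (25 without Derlin-2 control replicate 1), and 896 by the 1.5-fold rule. For the difference between the lines it was 3, and became 5 with 75th percentile scaling, 0 with normexp, without the filter, with the stricter filter and without the last rows, 0 to 21 when each array was left out (21 without Derlin-2 control replicate 1), and 4740 by the 1.5-fold rule. With the replicate block the counts of the Derlin-2 line, the mean and the difference were 0. The numbers were not taken as pairs, since the correlation of same-numbered deviations was 0.268 (Derlin-1) and -0.10 (Derlin-2).

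The median difference of the 10 genes ranged from 0.1565 to 0.3144 in the Derlin-1 line when each array was left out. In the Derlin-2 line this range was 0.0597 to 0.2243, and the median was 0.0258 with normexp and 0.1636 with the RefSeq probe of Ddit3, an alternative chosen after seeing the data, as was the median without each array. Single genes changed sign in 18 of the values recomputed. In the Derlin-1 line Atf4 became -0.0095 with normexp, -0.0401 as the mean of its probes and -0.0466 to 0.0765 when each array was left out, Ddit3 ranged from -0.1492 to 0.656 and Ddit4 from -0.2934 to 5e-04. In the Derlin-2 line Chac1 became -0.0253 with normexp, and Ddit3 became 0.0548 as the mean of its probes and 0.2196 at the RefSeq probe. When each array was left out, Atf4 ranged there from -0.0756 to 0.1269, Chac1 from -0.0053 to 0.0882, Ddit3 from -0.2835 to 0.0635, Ppp1r15a from -0.2471 to 0.0633, Sesn2 from -0.2004 to 0.0778 and Trib3 from -0.2956 to 0.5108. The cause of these shifts was not tested. Where an array was left out, the lone array of its group was assumed to vary like the other groups.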
